A study of Mus musculus with 12 samples.

Results

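Neurotrophins are secreted survival factors of neurons, and the genes described here are the ligands Bdnf and Ntf3 and the receptors Ntrk2 (TrkB), Ntrk3 (TrkC), Ngfr (p75) and Sort1 (sortilin). They were chosen by name, and 5 of the 6 had a probe set of their own among the 18193 genes measured. Ntf3 was not analysed here. RNA of the superior cervical ganglion (SCG) of the mouse, which holds sympathetic neurons of the neck, was hybridised to 12 Affymetrix mouse genome arrays, with 4 biological replicates of intact SCG tissue, 4 of SCG cells in 3D polystyrene scaffolds and 4 of SCG cells in 2D. All samples came from CD1 mice, with no mutant allele or transgene named, and the labels give an age of 21 days for all of them whereas the methods speak of neonatal animals. The 2D group grew on polystyrene Petri dishes according to the labels and on glass bottom dishes according to the methods, and both culture surfaces carried a collagen coat. Both cultures were kept in a medium that contained serum, and each dish received the dissociated cells of more than 1 ganglion, non-neuronal cells included. The comparisons ask how far each culture differed from the tissue, and whether the scaffold differed from the flat dish.

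The neurotrophins bind a Trk receptor tyrosine kinase each, BDNF preferring TrkB and neurotrophin-3 TrkC, and all of them bind p75. A Trk receptor signals through adaptor proteins to survival and growth pathways, whereas p75 alone or with sortilin can signal cell death, above all when it binds an uncleaved proneurotrophin. In sympathetic ganglia p75 is made both by the neurons and by the Schwann cells and satellite glia that surround them.

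Expression levels are log2 values after robust multi-array averaging (RMA), so that 1 unit is a doubling, and a level can be compared between arrays but not between probe sets. A gene or probe set was called higher or lower where its adjusted p in limma was under 0.05. The tissue group was uneven in the control probes of the arrays. The Gapdh control probes at the 3′ end exceeded those at the 5′ end by 3.45 on tissue replicate 2 and by 3.05 on tissue replicate 3. On tissue replicates 1 and 4 this gap was 1.1 and 1.0, in the 3D arrays it was 0.48 to 0.83 and in the 2D arrays 0.36 to 1.27. For the beta-actin control the gap was 3.55 and 4.21 on tissue replicates 2 and 3, and 1.63 and 2.21 on replicates 1 and 4. In the culture arrays it was 1.12 to 1.89, so that tissue replicate 4 lay above them on this control. A wide gap is a known sign of shortened RNA. Many differences with the tissue are therefore also given without tissue replicates 2 and 3, which leaves 2 tissue arrays against 4. Cell type markers are given with all tissue arrays only. The part of RNA quality in the differences was not tested. Levels under 6 are called dim here. The files give no detection call, so that differences that involve a dim group are given on the log2 scale with no fold, and their size is uncertain. Dbh, an enzyme of noradrenaline synthesis, read 10.79 or more on all 12 arrays and Sox10, a glial transcription factor, 10.74 or more, so that both marker genes were bright on every array.

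Of the 5 genes, Ntrk3 was called higher in tissue than in both cultures, by 3.71-fold against 2D and by 4.56-fold against 3D. Bdnf was lower in tissue than in 3D, and 1 of its probe sets, dim in tissue, was lower against both cultures. No other gene was called, which makes 1 of 5 against 2D, where 24.1% of all genes were called, and 2 of 5 against 3D, where 35.6% were. None was called between 3D and 2D, where 0.0165% of all genes (3 genes) passed. With tissue replicates 2 and 3 left out, 2 of the 5 were called against 2D, where 22.4% of all genes were, and all 5 against 3D, where 47.4% were. So few genes cannot be set apart from these backgrounds, and the description goes gene by gene.

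**Figure D1:**
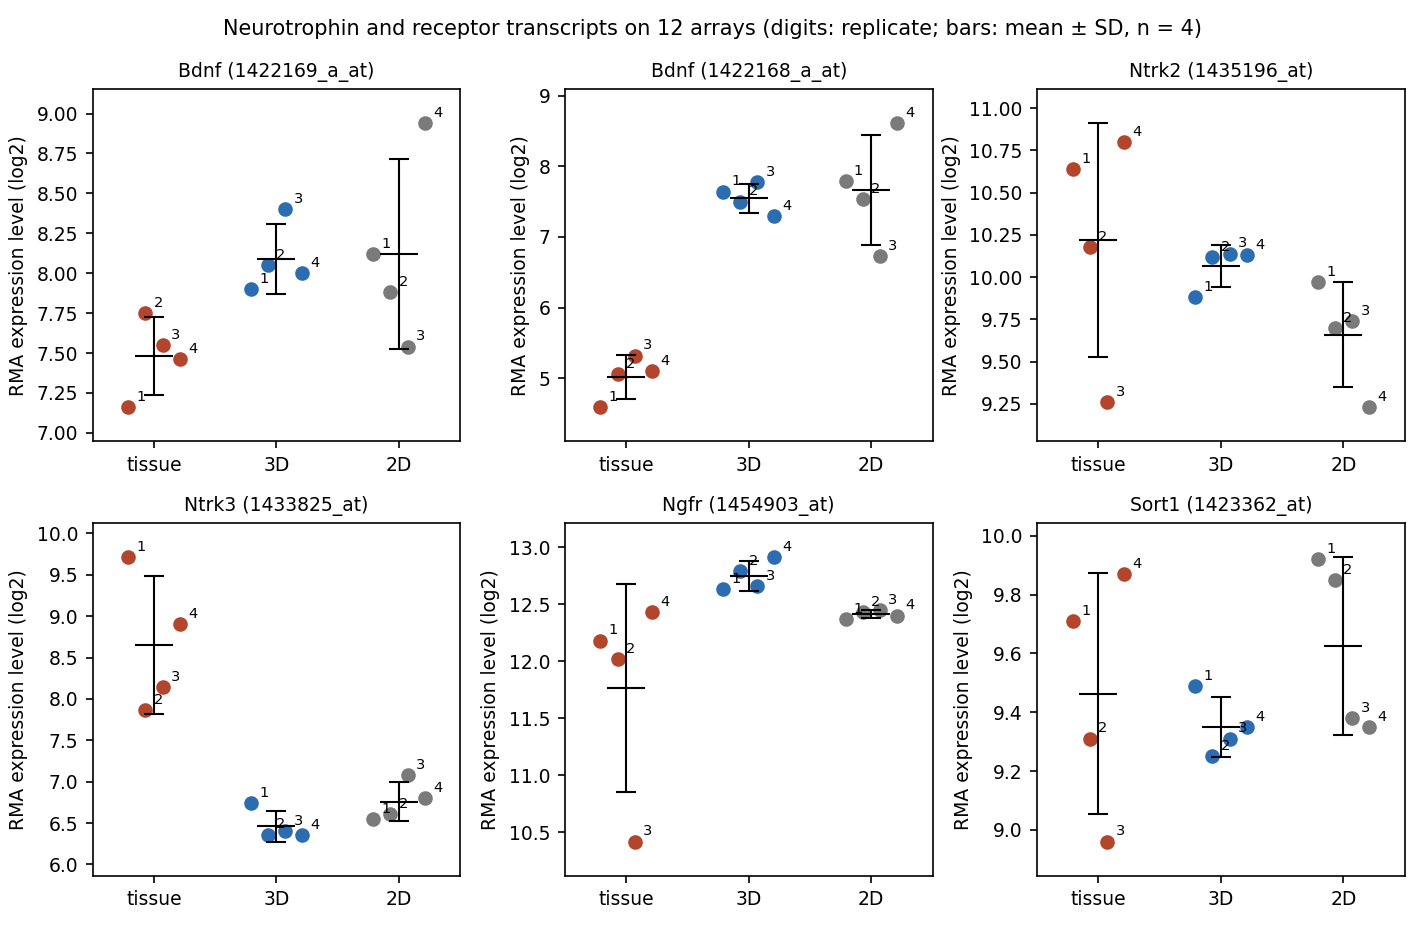
Log2 RMA level on the vertical axis of each panel for the 5 genes, with 2 probe sets for Bdnf, in 4 tissue, 4 3D and 4 2D arrays; digits give the replicate and bars the mean ± SD. The 4 tissue arrays lie above all 8 culture arrays for Ntrk3 and below all 8 for Bdnf probe set 1422168_a_at, whereas tissue and 2D arrays overlap for Ntrk2, Ngfr and Sort1.

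Bdnf, a neurotrophin made by neurons and by many non-neuronal cells, was read by 2 probe sets. The brighter, 1422169_a_at, gave 7.16, 7.75, 7.55 and 7.46 in tissue, 7.90, 8.05, 8.40 and 8.0 in 3D, and 8.12, 7.88, 7.54 and 8.94 in 2D. Its 4 tissue arrays lay below the 4 3D arrays, a lack of overlap that 42.4% of all genes showed between these groups. They overlapped with the 2D arrays through 2D replicate 3. The means were 7.48 ± 0.25 in tissue, 8.09 ± 0.22 in 3D and 8.12 ± 0.60 in 2D (SD, n = 4 each). Bdnf was thus 1.52-fold lower in tissue than in 3D (log2 difference -0.61, SE 0.17, limma adjusted p = 0.0248), but its log2 difference from 2D of -0.64 did not pass (95% interval -1.29 to 0.01, limma adjusted p = 0.131). The call against 3D was lost without any 1 of 3D replicates 2, 3 and 4 (limma adjusted p of 0.0624, 0.0732 and 0.0572) and under other scalings of the arrays. On tissue replicates 1 and 4 alone the log2 difference was -0.78 against 3D (limma adjusted p = 0.00462) and -0.81 against 2D (limma adjusted p = 0.171).

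The second Bdnf probe set, 1422168_a_at, gave 4.59, 5.06, 5.32 and 5.10 in tissue, 7.64, 7.50, 7.77 and 7.29 in 3D, and 7.79, 7.53, 6.73 and 8.61 in 2D. All 4 tissue arrays lay well below all 8 culture arrays, with no overlap, and all 4 were dim. The level was lower in tissue by a log2 difference of -2.65 against 2D (SE 0.36, limma adjusted p = 0.0019) and of -2.53 against 3D (SE 0.18, limma adjusted p = 3.4e-05). It remained past the threshold under each of the 20 alternatives tried against each culture, with log2 differences between -2.96 and -2.26. On tissue replicates 1 and 4 alone the values were -2.82 against 2D and -2.71 against 3D. Both Bdnf probe sets thus ran in 1 direction, and the size of the difference depended on the probe set. Between 3D and 2D the log2 difference was -0.03 for the brighter probe set (95% interval -0.65 to 0.58) and -0.12 for the other. The interval allows a higher as well as a lower level in 3D.

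Transcription of Bdnf starts at several places, each with its own first exon, and 1 of these promoters is known for a cAMP response element that answers neuronal activity. RefSeq (GRCm38.p6) gives 7 promoter windows for Bdnf, of 250 bases before the start, and the windows of 4 of the 6 genes were found. Sort1 and Ntrk3 had no entry. Of the 7 Bdnf windows, 2 hold a motif that was searched for, and they are shown because Bdnf was the ligand that differed. Capitals in the first mark TGAATCA, a match to the loose AP-1 pattern TGANTCA, in which N is any base. The middle base found here is A. The search counted any middle base, so the label AP-1 below names only the loose pattern and no established site. Capitals in the second mark the cAMP response element core (ACGTCA), and positions count back from the start.
Bdnf, chr2:109676782-109677031, + strand, AP-1 at -152: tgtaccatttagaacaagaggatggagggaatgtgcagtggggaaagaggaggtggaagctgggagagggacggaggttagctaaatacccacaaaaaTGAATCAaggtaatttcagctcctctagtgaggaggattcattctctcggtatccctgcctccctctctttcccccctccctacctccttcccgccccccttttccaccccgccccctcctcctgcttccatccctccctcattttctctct
Bdnf, chr2:109692186-109692435, + strand, ACGTCA at -36: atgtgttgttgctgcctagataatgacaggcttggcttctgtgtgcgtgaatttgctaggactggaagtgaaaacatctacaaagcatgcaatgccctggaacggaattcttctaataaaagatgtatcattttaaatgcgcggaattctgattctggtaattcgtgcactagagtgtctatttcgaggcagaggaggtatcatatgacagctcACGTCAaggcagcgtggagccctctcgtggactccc
On either strand, TGANTCA was found in 6.75% and ACGTCA in 6.47% of the 32851 windows of this length. The whole response element TGACGTCA, which contains ACGTCA, was found in 1.55% and the EGR motif GCGNGGGCG in 4.7%, and neither lay in any of the 11 windows of these genes. The arrays do not tell which start was used, and a match of letters says nothing about a factor.

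Ntrk3 encodes TrkC, the receptor that prefers neurotrophin-3. Its brightest probe set, 1433825_at, gave 9.71, 7.86, 8.14 and 8.90 in tissue, 6.74, 6.36, 6.40 and 6.35 in 3D, and 6.55, 6.61, 7.08 and 6.80 in 2D. Every tissue array lay above every culture array (33.8% of all genes had no overlap between tissue and 2D), and tissue replicates 1 and 4 were the highest. The means were 8.65 ± 0.83 in tissue, 6.46 ± 0.19 in 3D and 6.76 ± 0.24 in 2D (SD, n = 4 each). The log2 difference of tissue was 1.89 against 2D (SE 0.37, 95% interval 1.05 to 2.73, limma adjusted p = 0.00921) and 2.19 against 3D (SE 0.36, 95% interval 1.37 to 3.01, limma adjusted p = 0.00227). Ntrk3 passed against both cultures under each of the 22 alternatives. Its log2 differences without tissue replicates 2 and 3 were 2.55 against 2D and 2.84 against 3D. The cultures did not differ beyond their spread, with a log2 difference of -0.30 for 3D against 2D (95% interval -0.61 to 0.02, limma adjusted p = 0.461).

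All 8 Ntrk3 probe sets had a positive difference against both cultures, and 3 of them passed in each. Over all probe sets 10.4% were called higher in tissue against 2D and 16% against 3D. Probe set 1422329_a_at showed the unevenness of the tissue most plainly, with 8.33, 6.16, 6.24 and 7.65 in tissue, 6.49, 6.45, 6.49 and 6.25 in 3D, and 6.47, 6.29, 6.23 and 6.52 in 2D. Tissue replicates 2 and 3 lay at the level of the cultures and replicates 1 and 4 far above them. Its log2 difference against 2D was 0.72 with all 4 tissue arrays (limma adjusted p = 0.257) and 1.61 without replicates 2 and 3 (limma adjusted p = 0.0046). With those arrays left out 6 of the 8 probe sets passed against each culture, where 19.8% of all probe sets passed against 2D and 42.7% against 3D. Probe set 1447723_at read 6.63, 5.55, 4.66 and 6.61 in tissue, 4.20, 4.13, 4.01 and 4.11 in 3D, and 4.44, 3.97, 4.54 and 3.84 in 2D. Its groups did not overlap either, and its log2 difference was 1.67 against 2D (limma adjusted p = 0.0258) and 1.75 against 3D (limma adjusted p = 0.0107). The call against 2D was lost in 7 of 19 alternatives, among them without tissue replicate 2 (limma adjusted p = 0.0564) and without 2D replicate 1, 2 or 4 (0.0522, 0.072 and 0.071).

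The third Ntrk3 probe set that passed, 1425070_at, was dim throughout, with 5.39, 4.56, 5.20 and 5.13 in tissue, 4.46, 4.38, 4.32 and 4.19 in 3D, and 4.45, 4.23, 4.37 and 4.48 in 2D. Its log2 difference was 0.69 against 2D (limma adjusted p = 0.035) and 0.73 against 3D (limma adjusted p = 0.0165), and these calls were lost in 11 and 3 of 19 alternatives. The losses against 2D included leaving out any 1 of tissue replicates 1, 3 and 4 or any 1 of the 2D replicates (limma adjusted p between 0.053 and 0.0998), and those against 3D leaving out 3D replicate 4 (limma adjusted p = 0.0567). Probe sets 1455917_at, 1425071_s_at, 1426003_at and 1443970_at did not pass with all arrays. Of these, 1426003_at ran against the unevenness described above, with 4.94, 5.85, 6.01 and 5.50 in tissue, so that replicates 2 and 3 were its highest tissue arrays. Over the 24 probe sets of the 5 genes, tissue replicates 2 and 3 were the lowest tissue arrays in 12 and the highest in 6.

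**Figure D2:**
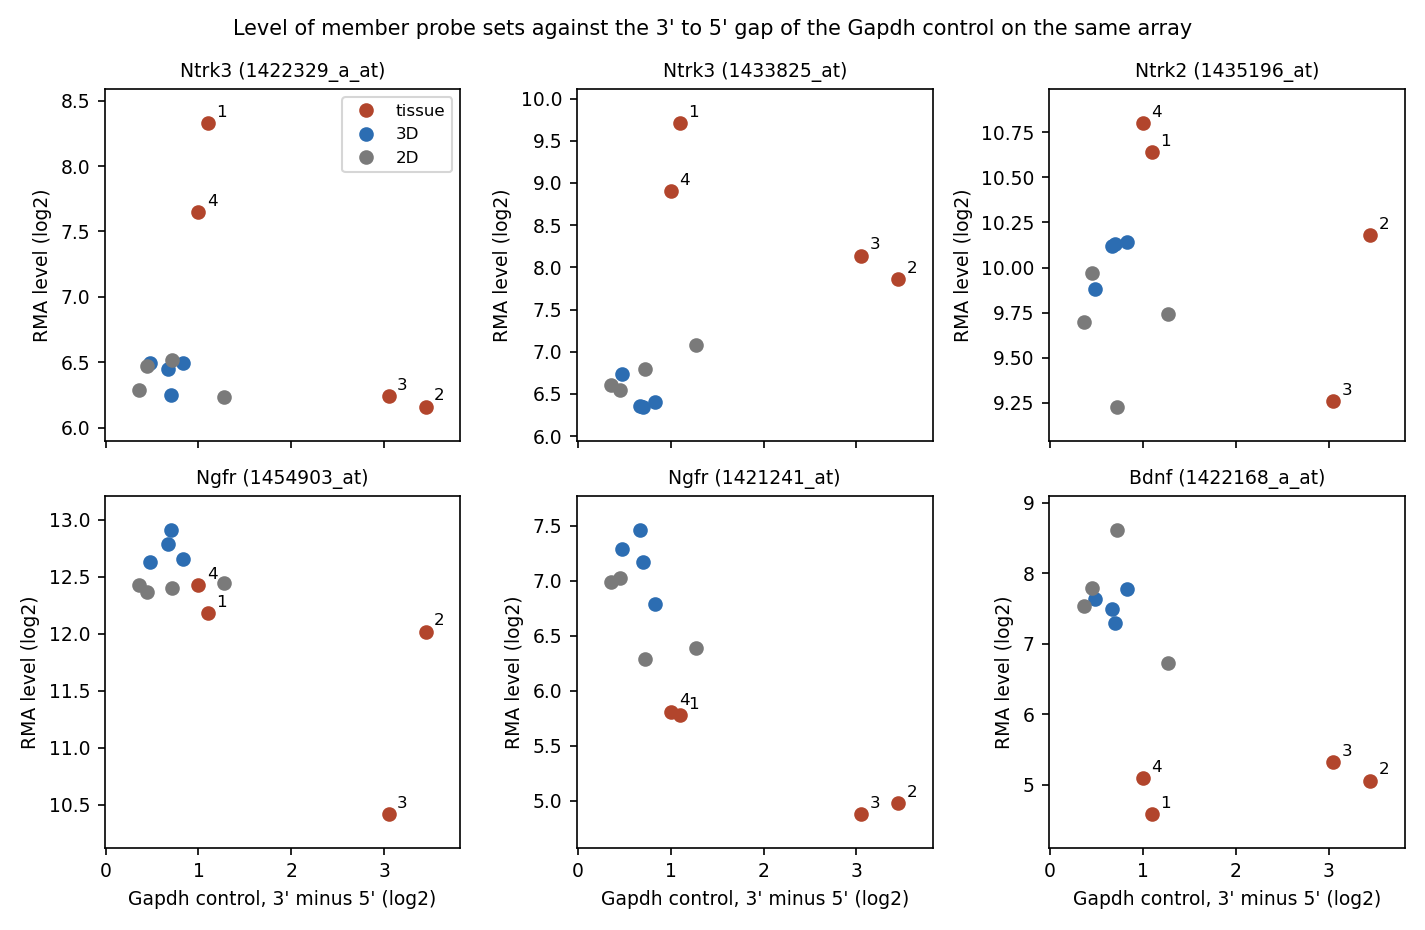
Log2 RMA level of 6 probe sets on the vertical axis against the 3′ minus 5′ gap of the Gapdh control on the same array (log2, horizontal axis), with tissue, 3D and 2D arrays in colours and tissue replicates numbered. Tissue replicates 2 and 3, at gaps of 3.45 and 3.05, lie lowest of the 4 tissue arrays in the 5 panels of Ntrk3, Ntrk2 and Ngfr, but not for Bdnf, and other probe sets of Ntrk2 and Ntrk3, not plotted, have them highest.

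Ntrk2 encodes TrkB, the receptor for BDNF and neurotrophin-4, of which forms with and without a kinase domain exist. The brightest of its 8 probe sets, 1435196_at, gave 10.64, 10.18, 9.26 and 10.80 in tissue, 9.88, 10.12, 10.14 and 10.13 in 3D, and 9.97, 9.70, 9.74 and 9.23 in 2D. Tissue replicate 3 lay among the lowest of all arrays and replicates 1 and 4 above every culture array. The means were 10.22 ± 0.69 in tissue, 10.07 ± 0.12 in 3D and 9.66 ± 0.31 in 2D (SD, n = 4 each), and no pair of groups passed the test. The log2 difference of tissue was 0.56 against 2D (95% interval -0.19 to 1.31, limma adjusted p = 0.227) and 0.15 against 3D (95% interval -0.54 to 0.85, limma adjusted p = 0.713). Both passed without tissue replicates 2 and 3, at 1.06 against 2D (limma adjusted p = 0.0176) and 0.65 against 3D (limma adjusted p = 0.00217). Leaving out replicate 3 alone gave 0.88 against 2D (limma adjusted p = 0.0254).

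The other Ntrk2 probe sets did not all run 1 way. Probe set 1458622_at gave 5.81, 6.03, 6.16 and 5.69 in tissue, 4.73, 4.61, 4.94 and 4.60 in 3D, and 4.68, 4.59, 4.62 and 4.46 in 2D. Here all 4 tissue arrays, replicates 2 and 3 included, lay above all 8 culture arrays. Its log2 difference was 1.34 against 2D (limma adjusted p = 8.29e-04) and 1.2 against 3D (limma adjusted p = 5.5e-04), although all 3 group means were under 6. Probe set 1446712_at gave 6.56, 7.50, 7.81 and 6.71 in tissue, 6.01, 5.90, 5.81 and 5.85 in 3D, and 5.83, 5.71, 6.53 and 5.83 in 2D, with replicates 2 and 3 the highest in tissue. Its log2 difference was 1.17 against 2D (limma adjusted p = 0.0297) and 1.25 against 3D (limma adjusted p = 0.00821). Against 2D the call was lost in 7 of 20 alternatives, among them without tissue replicate 2 (limma adjusted p = 0.0894), without 2D replicate 1, 2 or 4 (0.0773, 0.0844 and 0.0773) and without tissue replicates 2 and 3 (0.66, limma adjusted p = 0.103). Probe set 1437560_at read 7.62, 7.87, 7.69 and 7.88 in tissue, 7.16, 7.32, 7.47 and 7.18 in 3D, and 7.08, 7.17, 7.19 and 7.15 in 2D, again without overlap. Its log2 difference was 0.62 against 2D (limma adjusted p = 0.0126) and 0.48 against 3D (limma adjusted p = 0.0224), and the call against 3D was lost in 7 of 20 alternatives, among them without tissue replicate 2 (limma adjusted p = 0.0564) and without 3D replicate 1, 2 or 4 (0.0677, 0.0605 and 0.0788). Probe set 1420837_at ran the other way against 3D, with 5.47, 5.63, 6.16 and 5.73 in tissue against 6.34, 6.39, 6.43 and 6.47 in 3D and a log2 difference of -0.66 (limma adjusted p = 0.0142). The dim probe set 1435305_at was higher against 3D by 0.51 (limma adjusted p = 0.0169), a call lost in 6 of 19 alternatives, among them without 3D replicate 1, 2 or 4 (0.0511, 0.0613 and 0.0577). Probe sets 1420838_at and 1444121_at did not pass with all arrays. Of the 8 probe sets 3 were called higher and 0 lower against 2D, where 10.4% and 11.9% of all probe sets were. Against 3D 4 were higher and 1 lower, where 16% and 17.1% of all probe sets were. Which transcript form each probe set reads was not analysed here.

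Ngfr encodes p75, which binds all neurotrophins. Its brightest probe set, 1454903_at, gave 12.18, 12.02, 10.42 and 12.43 in tissue, 12.63, 12.79, 12.66 and 12.91 in 3D, and 12.37, 12.43, 12.45 and 12.40 in 2D. Tissue replicate 3 stood far below the rest, and the 3D arrays lay above all others without overlap. The means were 11.76 ± 0.91 in tissue, 12.75 ± 0.13 in 3D and 12.41 ± 0.04 in 2D (SD, n = 4 each). The log2 difference of tissue was -0.65 against 2D (95% interval -1.53 to 0.23, limma adjusted p = 0.233) and -0.99 against 3D (95% interval -1.87 to -0.10, limma adjusted p = 0.0802). Without tissue replicate 3 the difference from 3D was -0.54 (limma adjusted p = 0.0145), without replicate 4 it was -1.21 (limma adjusted p = 0.0417), and without replicates 2 and 3 it was -0.44 (limma adjusted p = 0.0194). Against 2D it was -0.11 without replicates 2 and 3 (limma adjusted p = 0.545). Most of the difference from 2D thus lay in those 2 arrays, above all in replicate 3, which read 10.42 beside 12.02 on replicate 2.

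The dimmer Ngfr probe sets gave larger differences. Probe set 1421241_at read 5.78, 4.98, 4.88 and 5.81 in tissue, 7.29, 7.46, 6.79 and 7.17 in 3D, and 7.03, 6.99, 6.39 and 6.29 in 2D. No tissue array reached a culture array. Its log2 difference was -1.31 against 2D (limma adjusted p = 0.0136) and -1.82 against 3D (limma adjusted p = 0.00105). On tissue replicates 1 and 4 these were -0.88 (limma adjusted p = 0.0504) and -1.38, which still passed against 3D. Probe set 1450177_at read 8.13, 7.15, 5.69 and 8.88 in tissue, 9.49, 9.78, 9.57 and 9.70 in 3D, and 9.20, 9.25, 8.27 and 8.97 in 2D. Its tissue arrays lay below all 3D arrays and overlapped with the 2D arrays. The log2 difference was -2.17 against 3D (limma adjusted p = 0.0196) and -1.46 against 2D (limma adjusted p = 0.106). Leaving out tissue replicate 2 took this call against 3D below the threshold (limma adjusted p = 0.0591), as did leaving out 3D replicate 2 or 4 (0.054 and 0.0524). All 3 Ngfr probe sets had a negative difference against both cultures, also where the call was missed.

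Sort1 encodes sortilin, a Vps10p-domain sorting receptor that pairs with p75. Its brightest probe set, 1423362_at, gave 9.71, 9.31, 8.96 and 9.87 in tissue, 9.49, 9.25, 9.31 and 9.35 in 3D, and 9.92, 9.85, 9.38 and 9.35 in 2D. The 3 groups overlapped, with means of 9.46 ± 0.41 in tissue, 9.35 ± 0.10 in 3D and 9.63 ± 0.30 in 2D (SD, n = 4 each). No pair of groups passed, with limma adjusted p of 0.622 for tissue against 2D, 0.679 for tissue against 3D and 0.514 for 3D against 2D. Sort1 was higher in tissue than in 3D by 0.44 without tissue replicates 2 and 3 (limma adjusted p = 0.011), and its log2 difference from 2D then was 0.17 (limma adjusted p = 0.608). The sign of its difference from 2D turned with the scaling of the arrays, from -0.16 as deposited to 0.25 after cyclic loess, and neither passed. Its other probe sets, 1423363_at and 1450955_s_at, passed in no comparison of all arrays, with log2 differences of tissue between -0.47 and 0.57.

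**Figure D3:**
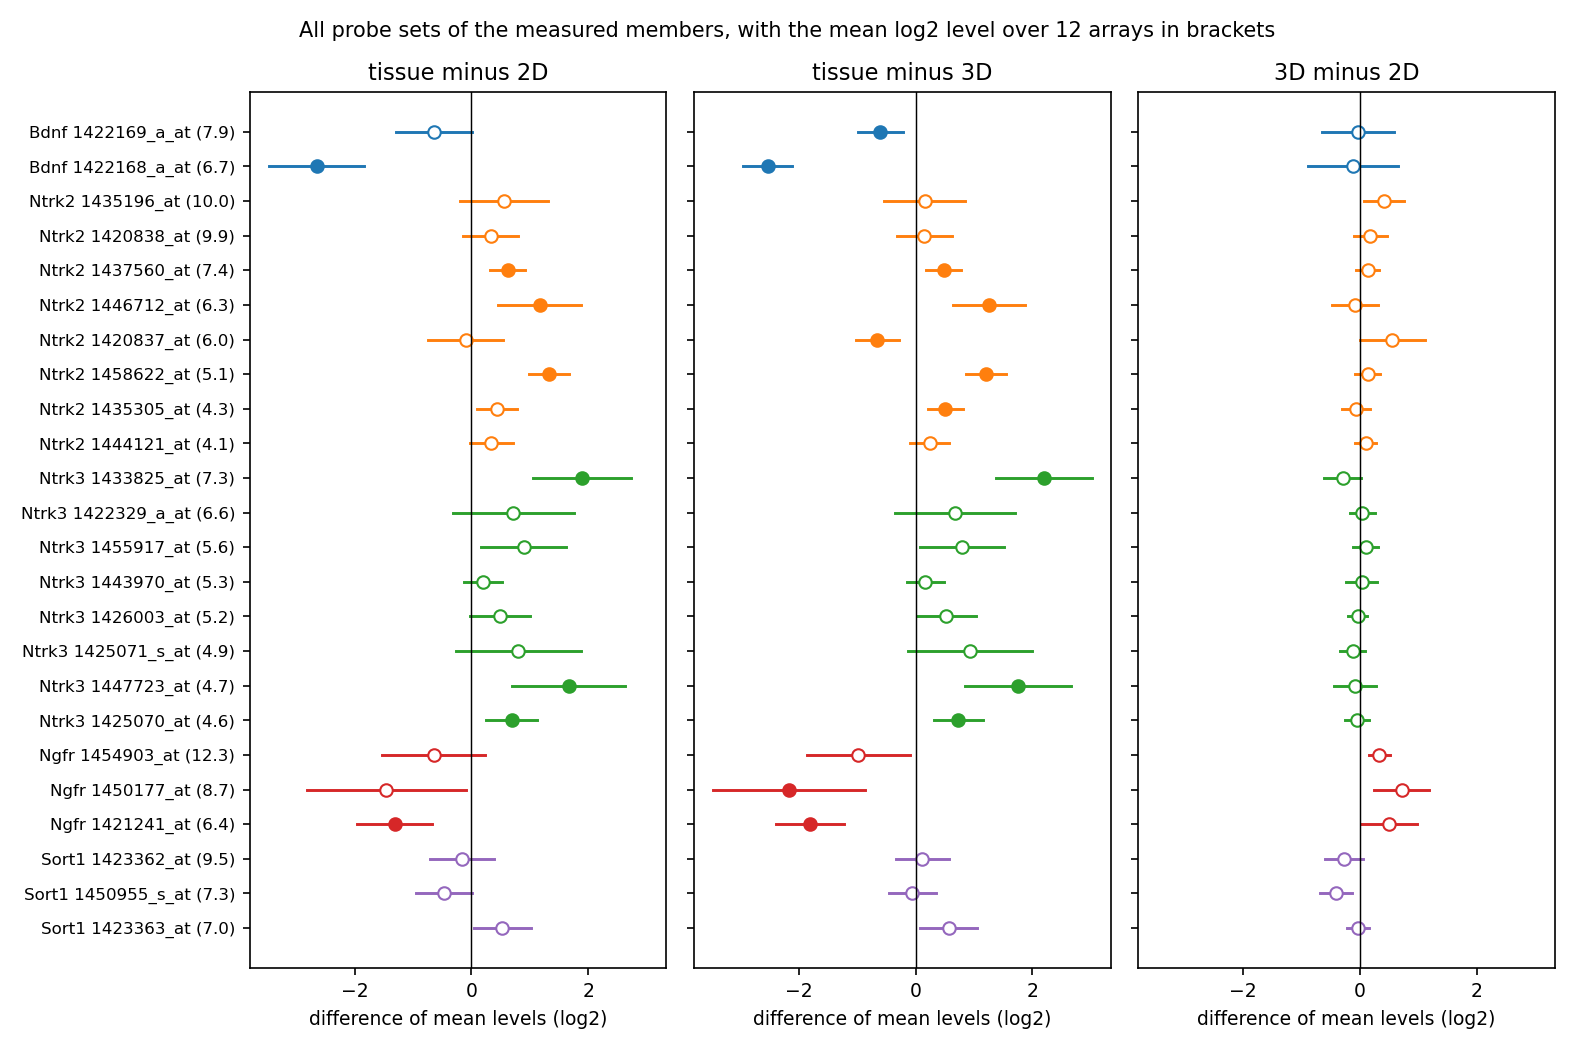
Difference of mean log2 levels on the horizontal axis for all 24 probe sets of the 5 genes, with the 95% interval; filled points passed limma at an adjusted p under 0.05. All 8 Ntrk3 probe sets lie right of 0 in both tissue comparisons and all 3 of Ngfr left of it, and no point is filled for 3D minus 2D.

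Over the 24 probe sets of the 5 genes, 8 passed against 2D, where 22.3% of all probe sets did. Of these, 6 read higher in tissue and 2 lower, where 10.4% and 11.9% of all probe sets did. Against 3D 12 passed, 7 of them higher and 5 lower, where 33.1% of all probe sets passed, 16% higher and 17.1% lower. The arrays of the groups did not overlap for 9 probe sets against 2D and 13 against 3D, where 32.9% and 41% of all probe sets did not. Dropping tissue replicates 2 and 3 gave 10 higher and 1 lower against 2D and 13 higher and 6 lower against 3D, where 19.8% and 42.7% of all probe sets passed. Probe sets of 1 gene read RNA from the same gene and are not independent, and 9 of the 24 had a mean level under 6.

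Between the cultures no probe set of the 5 genes passed, where 0.0155% of all probe sets did, and the arrays separated for 3 of the 24, of which 2 read Ngfr and 1 Sort1. All 4 3D arrays of 1454903_at lay above all 4 2D arrays, by 1.26-fold (log2 difference 0.34, SE 0.08, 95% interval 0.15 to 0.52, limma adjusted p = 0.205, exact permutation p = 0.0286, the smallest 4 against 4 arrays can give). For 7.36% of all genes, and 6.77% of all probe sets, the 3D and 2D arrays did not overlap. Probe set 1450177_at had a log2 difference of 0.71 without overlap (limma adjusted p = 0.265) and 1421241_at one of 0.50 with overlap (limma adjusted p = 0.412). Sort1 probe set 1450955_s_at gave 7.25, 7.19, 7.16 and 7.14 in 3D and 7.73, 7.53, 7.85 and 7.29 in 2D, lower on every 3D array (log2 difference -0.41, 95% interval -0.69 to -0.14, limma adjusted p = 0.265). It passed without 3D replicate 1 and 2D replicate 4 (-0.54, limma adjusted p = 0.0348). With those arrays left out 1357 of all 18193 genes passed between 3D and 2D, beside 3 with all arrays. The brightest probe set of Ntrk2 had a log2 difference of 0.41 (95% interval 0.06 to 0.75, limma adjusted p = 0.362) and that of Sort1 of -0.28 (95% interval -0.61 to 0.06). A missed threshold does not show that the genes were alike in 3D and 2D.

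Other genes of neurotrophin signalling were taken from lists by role. Of 69 listed genes 62 were measured and 7 were not analysed here. Of the 62, 5 (8.06%) read higher and 15 (24.2%) lower in tissue than in 2D, where 9.87% of all genes were higher and 14.3% lower. Against 3D 6 (9.68%) read higher and 26 (41.9%) lower, where 15.5% of all genes were higher and 20.1% lower. The median log2 difference over the list was -0.48 against 2D and -0.49 against 3D, beside 0.03 over all genes in each. With tissue replicates 2 and 3 left out the medians were -0.16 in each. Then 2 genes were higher and 11 lower against 2D (10.1% and 12.3% of all genes), and 8 higher and 26 lower against 3D (22.7% and 24.6%). None of the 62 passed between 3D and 2D, where the median was 0.02. More of the 62 were lower than higher also after cyclic loess (13 and 6 against 2D, 20 and 10 against 3D) and after centring on bright probe sets (11 and 7, 21 and 8).

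**Figure D4:**
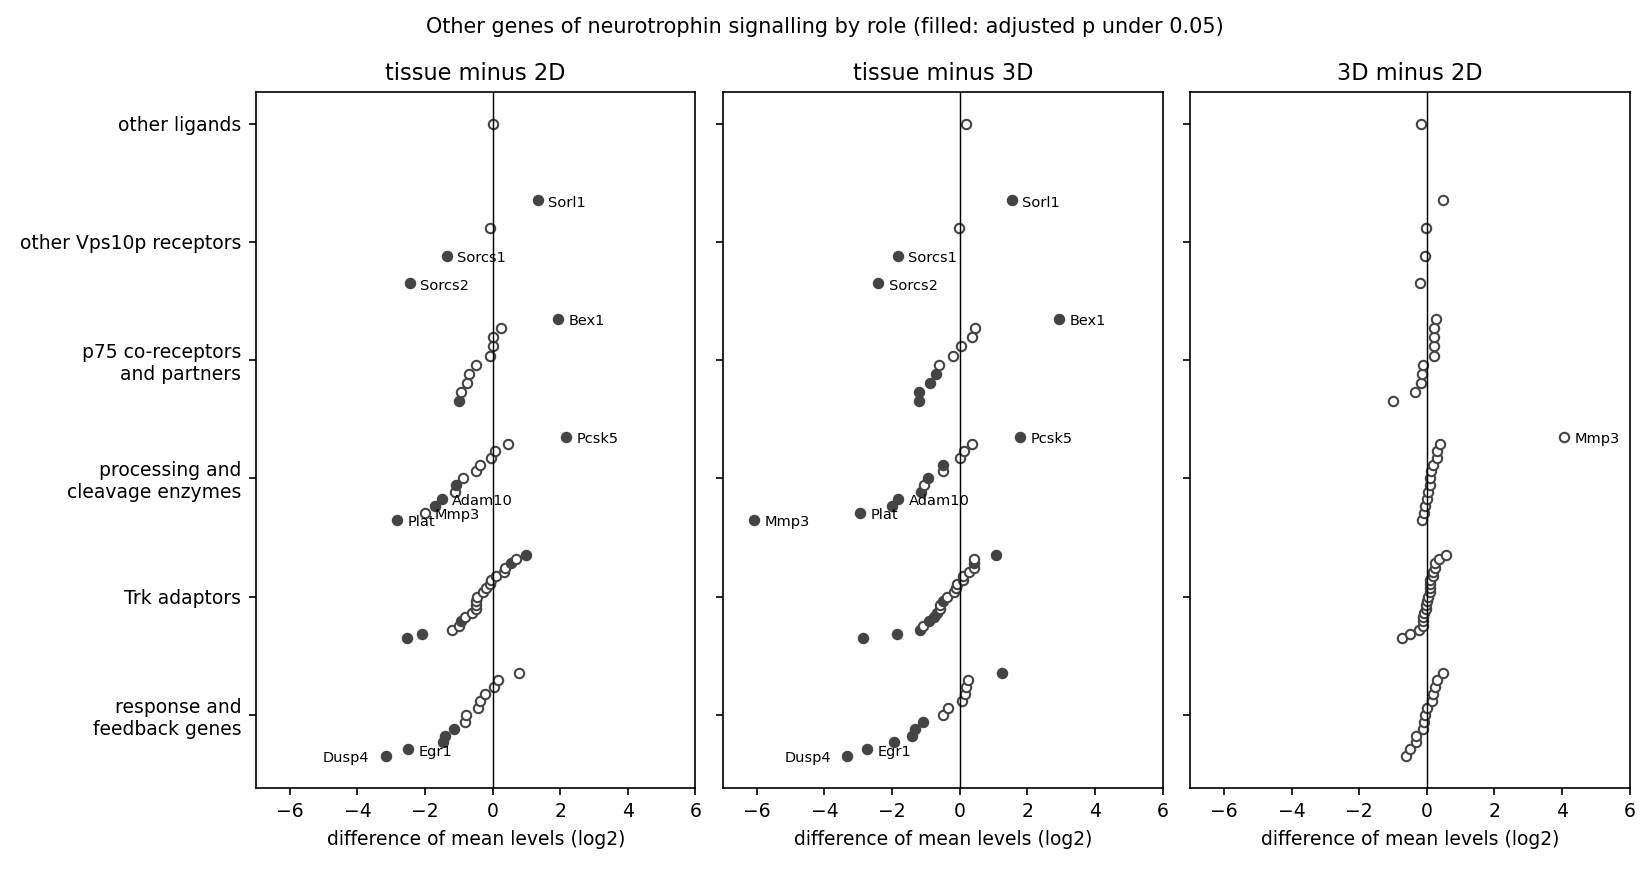
Difference of mean log2 levels on the horizontal axis for 62 genes of neurotrophin signalling, grouped by role, in the 3 comparisons; filled points passed limma at an adjusted p under 0.05. Points left of 0 outnumber those on the right in both tissue comparisons, and the enzyme Mmp3 lies far from the other genes of its role against 3D.

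Among the ligands, Ntf5 (neurotrophin-4, a TrkB ligand) did not differ detectably, with log2 differences of 0.00 against 2D and 0.19 against 3D (limma adjusted p = 0.284). Of the 4 other Vps10p-domain receptors, 2 were lower and 1 higher in tissue than in each culture. Over all genes 14.3% were lower and 9.87% higher against 2D, and 20.1% and 15.5% against 3D. Sorcs2, a receptor that can also pair with p75, gave 8.22, 6.85, 6.62 and 8.05 in tissue, 9.49, 9.86, 9.98 and 10.05 in 3D, and 10.20, 9.92, 9.38 and 10.02 in 2D. All 4 tissue arrays were below all cultures, by a log2 difference of -2.45 against 2D and -2.41 against 3D (limma adjusted p = 0.00346 and 0.00143). Without tissue replicates 2 and 3 these differences were -1.745 and -1.71. Sorcs1 was lower too, with log2 differences of -1.35 against 2D and -1.83 against 3D. Sorl1, a sorting receptor of the same family, was higher by 1.33 against 2D (limma adjusted p = 0.0466) and by 1.55 against 3D (limma adjusted p = 0.00364). Its tissue arrays of 10.60, 10.15, 9.53 and 10.66 overlapped with those of 2D at 9.92, 9.13, 8.50 and 8.07, and the call against 2D was lost in 8 of 22 alternatives, among them without tissue replicate 1, 2 or 4 and without 2D replicate 2, 3 or 4 (limma adjusted p between 0.0786 and 0.112). Sorcs3 had log2 differences of -0.08 and -0.02 and did not pass.

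Enzymes that cleave proneurotrophins or their receptors were lower in tissue in 4 of 13 cases against 2D and in 7 of 13 against 3D, and higher in 1 case each. These shares are 30.8% and 53.8% lower, where 14.3% and 20.1% of all genes were, and 7.69% higher in each, where 9.87% and 15.5% were. Without tissue replicates 2 and 3, 3 of 13 were lower against 2D and 7 against 3D, where 12.3% and 24.6% of all genes were. Again 1 was higher in each, where 10.1% and 22.7% of all genes were. The median of the 13 was then -0.43 against 2D and -0.53 against 3D, beside -0.89 and -0.93 with all tissue arrays. Plat, the tissue plasminogen activator, which starts the cleavage of proBDNF through plasmin, gave 9.94, 8.24, 7.94 and 9.08 in tissue, 11.78, 11.67, 11.90 and 11.67 in 3D, and 11.81, 12.04, 11.30 and 11.35 in 2D. It was lower in all 4 tissue arrays, by a log2 difference of -2.83 against 2D (limma adjusted p = 0.00258). Without tissue replicates 2 and 3 this was -2.115 (limma adjusted p = 0.00712). Adam10, a membrane protease that sheds receptor ectodomains, gave 11.44, 11.65, 11.19 and 10.87 in tissue, 13.16, 13.12, 13.03 and 13.13 in 3D, and 12.81, 12.79, 12.69 and 12.90 in 2D, and was lower in tissue with a log2 difference of -1.51 against 2D (limma adjusted p = 0.00118). Its 3D arrays also lay above its 2D arrays without overlap, by 0.31 (limma adjusted p = 0.197). Mmp3, a secreted matrix metalloproteinase that can cleave proneurotrophins, was lower in tissue than in 3D, with 4.65, 5.05, 4.93 and 4.92 in tissue, 9.42, 12.57, 11.19 and 10.67 in 3D, and 5.0, 5.62, 10.08 and 6.89 in 2D. Its log2 difference from 3D was -6.08 (limma adjusted p = 9.99e-05), with all 4 tissue arrays dim. The 2D arrays were scattered between these levels, and the log2 difference of 4.07 for 3D against 2D had a 95% interval of 1.58 to 6.55 (limma adjusted p = 0.233). Pcsk5, a proprotein convertase, was the enzyme called higher in tissue. It gave 9.24, 8.69, 9.06 and 8.80 in tissue, 6.64, 7.30, 7.53 and 7.17 in 3D, and 6.60, 5.90, 7.56 and 7.06 in 2D, 4.49-fold higher against 2D (limma adjusted p = 0.00302).

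Of 13 response and feedback genes, which Trk and other growth factor receptors switch on, tissue had 5 lower and 0 higher than 2D, and 6 lower and 1 higher than 3D. The lower shares were 38.5% and 46.2%, where 14.3% and 20.1% of all genes were lower. Dusp4, a phosphatase that turns off MAP kinases, gave 5.67, 5.47, 4.83 and 5.64 in tissue, 8.64, 8.76, 8.57 and 8.94 in 3D, and 7.55, 9.16, 8.28 and 9.28 in 2D. The tissue arrays were all dim and lay far below all cultures, with a log2 difference of -3.17 against 2D (limma adjusted p = 0.00117). Egr1, an immediate early transcription factor, gave 9.77, 9.0, 9.06 and 9.0 in tissue, 11.68, 11.85, 12.17 and 12.09 in 3D, and 11.87, 11.94, 12.95 and 10.05 in 2D. Its log2 difference from 3D was -2.74 (limma adjusted p = 4.13e-05), and its difference from 2D missed the threshold without tissue replicates 2 and 3 (-2.32, limma adjusted p = 0.0712). Without these replicates 3 response genes were lower against 2D and 6 against 3D, where 12.3% and 24.6% of all genes were lower. The median of the 13 against 3D then turned positive, at 0.08 beside -0.48 with all tissue arrays. The calls of Dusp4, Adam10, Plat, Pcsk5, Sorcs1 and Sorcs2 against both cultures, and of Egr1 and Mmp3 against 3D, stood under each of the 22 alternatives.

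Of 21 measured Trk adaptors, tissue had 2 higher and 3 lower than 2D, and 2 higher and 7 lower than 3D. Against 2D these shares, 9.52% and 14.3%, were close to the 9.87% and 14.3% of all genes, and against 3D they were 9.52% and 33.3%, where 15.5% and 20.1% of all genes were called. Without tissue replicates 2 and 3, 0 were higher and 2 lower against 2D (10.1% and 12.3% of all genes). Against 3D 3 were then higher and 7 lower (22.7% and 24.6%). The median of the adaptors was then -0.05 against 2D and -0.02 against 3D, beside -0.47 and -0.37 with all tissue arrays. Between the cultures Gab1, a docking protein, had a log2 difference of 0.57 (limma adjusted p = 0.278) and Irs2, an insulin receptor substrate, of -0.74 (limma adjusted p = 0.367). Of 10 partners of p75, tissue had 1 higher and 1 lower than 2D, and 1 higher and 4 lower than 3D. Without tissue replicates 2 and 3 these counts were 0 and 1 against 2D, and 2 and 4 against 3D. Bex1, a small adaptor known to bind p75, was the one called higher with all arrays, with 11.87, 12.14, 12.36 and 11.59 in tissue, 9.71, 8.74, 8.74 and 9.04 in 3D, and 10.82, 10.35, 10.48 and 8.59 in 2D. Its tissue arrays lay above all cultures, by a log2 difference of 2.93 against 3D (limma adjusted p = 8.17e-05), but not past the threshold against 2D without tissue replicates 2 and 3 (1.67, limma adjusted p = 0.0971).

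Several lists of cell type markers also differed between tissue and cultures. In bulk RNA of a ganglion, fewer cells of a type and less RNA per cell cannot be told apart. In the sympathetic neuron list, 4 of 11 markers passed as higher in tissue than in 2D and 8 than in 3D, with 0 lower. Endothelial markers were higher in 6 of 10 and 8 of 10. Of 12 pan-neuronal markers 2 were higher against 2D and 5 against 3D, with 0 lower. Over all genes 9.87% were higher against 2D and 15.5% against 3D. The summed level of the sympathetic markers ran from 15.28 to 16.56 in tissue, 14.36 to 15.14 in 3D and 14.16 to 15.70 in 2D on the log2 scale, and the tissue arrays lay above those of 3D but not of 2D. This sum was 15.70 on 2D replicate 1, where Ntrk3 read 6.55, and 15.28 on tissue replicate 3, where Ntrk3 read 8.14. Th, the rate-limiting enzyme of noradrenaline synthesis, gave 13.06, 12.64, 11.05 and 13.45 in tissue, 10.63, 9.93, 9.44 and 9.89 in 3D, and 11.89, 11.58, 12.44 and 9.59 in 2D. Skeletal muscle markers summed to 8.66, 12.40, 11.66 and 12.32 in tissue and stayed between 8.31 and 8.56 in the cultures.

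All 9 cell division markers were lower in tissue against both cultures, with medians of -4.03 against 2D and -3.88 against 3D. Their summed level ran from 8.68 to 9.23 in tissue, 12.43 to 12.97 in 3D and 12.28 to 12.84 in 2D, with a wide gap between tissue and cultures. Schwann cell markers were called in both directions, 1 of 8 higher (12.5%) and 2 lower (25%) in tissue in each comparison. Their median log2 difference was -0.05 against 2D and 0.12 against 3D. Sox10, a glial transcription factor, was 1 of the lower ones, with log2 differences of -1.30 against 2D (limma adjusted p = 0.0195) and -1.68 against 3D (limma adjusted p = 0.00352). It read 11.85, 11.14, 10.74 and 12.28 in tissue, below all 8 culture arrays. Of 7 satellite glia markers, tissue had 2 higher and 1 lower than 2D, and 4 higher and 1 lower than 3D. Fibroblast markers were lower in 3 of 10 cases (30%) in each comparison and higher in 2 (20%) against 2D. Of 10 macrophage markers, tissue had 1 higher and 2 lower than 2D, and 5 higher and 3 lower than 3D. Of 8 smooth muscle and pericyte markers, 1 was higher and 3 lower against 2D, and 1 higher and 2 lower against 3D. Over all genes 9.87% were higher and 14.3% lower against 2D, and 15.5% and 20.1% against 3D. The summed fibroblast level was 14.13 to 15.99 in tissue, 16.08 to 16.30 in 3D and 15.75 to 16.40 in 2D. What part these cells had in the values of the neurotrophin genes was not tested.

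The genes whose pattern over the 12 arrays came closest to a called neurotrophin gene were named by the smallest root mean square difference of levels, each centred on its own mean, among 18192 other genes. For Bdnf probe set 1422169_a_at these were Foxf2 (0.17), Colgalt1 (0.19) and Entpd7 (0.21), in log2 units. For Ntrk3 they were Lypd2 (0.31), Bcas1 (0.34) and Aldh1a7 (0.34). Bcas1, a gene of myelinating glia, averaged 8.59 in tissue, 6.07 in 3D and 6.31 in 2D. The measure favours genes that vary little, and all 12 arrays share the 3 group levels.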

How the data were processed

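The deposited table holds log2 levels of 12 arrays, which the authors computed with RMA in Expression Console (background correction, quantile normalization, 1 summary per probe set). Its version is not stated in the sources, and 0 columns were left unused. Quantile normalization hides a shift shared by most genes. Of the probe sets, 64 controls were left out and 45037 tested. The platform annotation gave 34945 of these 1 symbol, and a gene was represented by its probe set of highest mean level over all 12 arrays. Pairs of groups were fitted separately, on 8 arrays each, with limma 3.58.1 (lmFit and eBayes, R 4.3.3) and Benjamini-Hochberg adjustment over 45037 probe sets. Exact permutation tests were two-sided over 70 splits.

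The genes and lists were chosen with earlier results of these data known. All probe sets of the listed genes, the other ligands and Vps10p receptors, and in each comparison the 4 other pathway genes with the smallest adjusted p were named. The labels call the samples biological replicates but name no animals, so p-values measure only the spread between these samples. Alternatives covered scaling, prior, array weights, a filter on dim probe sets (a value of at least 6 on 4 arrays), the probe set of a gene, the test and each replicate. A supplement of the culture medium is not reported here. No batch was tested, since scan dates were not used here. The number of arrays limits the precision.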

Additional observations from a re-analysis of the deposited data

Results flagged for a closer look

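In 114 groups of 4 arrays, 7 held a value whose gap to the nearest other, as a share of the range of the group, was over Dixon's 95% critical value, and chance gives about 1 in 20. In tissue, Egr1 read 9.77 on replicate 1 and 9.0 to 9.06 on the other arrays. In 3D, the brightest Ntrk2 probe set 1435196_at read 9.88 on replicate 1 and 10.12 to 10.14 on the others, and the brightest Ntrk3 probe set 1433825_at read 6.74 on replicate 1 and 6.35 to 6.40 on the others. Ntrk3 probe set 1422329_a_at read 6.25 on 3D replicate 4 and 6.45 to 6.49 on the others. In 2D, Ntrk2 probe set 1420838_at read 9.53 on replicate 4 against 9.84 to 9.89, and Ntrk3 probe set 1425071_s_at read 4.45 on replicate 4 against 4.72 to 4.76. Ntrk2 probe set 1446712_at read 6.53 on 2D replicate 3 against 5.71 to 5.83. None of these arrays is one of tissue replicates 2 and 3.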

How the results depend on the processing

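No called value turned its direction under any alternative. The count of the 5 neurotrophin genes past the threshold was 1 for tissue against 2D, and became 2 with array weights, cyclic loess, centring on bright probe sets or without tissue replicates 2 and 3, and 3 with the mean or the most variable probe set of a gene. Leaving out each replicate gave 1 to 2 (2 without tissue replicate 3). Against 3D the count was 2, and became 5 with array weights or without tissue replicates 2 and 3, 4 with the mean or the most variable probe set, and 1 with centring or at least 2-fold, and 1 to 3 without each replicate (1 without 3D replicate 2, 3 or 4). Ntrk2 and Sort1 passed against 3D after cyclic loess (0.59 and 0.53) and Bdnf did not (-0.38, limma adjusted p = 0.149). For 3D against 2D the count was 0, and 1 (Ngfr) with the methods' t-test without adjustment. Of the pathway genes 20 passed against 2D, 31 with 1 fit of all 12 arrays, 11 with the methods' t-test after Benjamini-Hochberg, 13 without tissue replicates 2 and 3, and 12 to 22 without each replicate (12 without tissue replicate 2, 13 without 2D replicate 2). Against 3D 32 passed, 23 to 36 without each replicate. Between 3D and 2D 0 passed, 2 with array weights and 3 with the methods' t-test without adjustment. Without 2D replicate 4 and 3D replicate 1 the count was 6. Over all 18193 genes these settings called 312, 2118 and 1357, beside 3 in the fit used above. Against 2D that fit called 4393 genes, array weights 6321, 1 fit of all 12 arrays 7172 and the t-test after Benjamini-Hochberg 2668. Against 3D it called 6475 genes and array weights 8524. Leaving out tissue replicate 2 gave 2369 against 2D. Leaving out tissue replicates 2 and 3 gave 4068 against 2D and 8620 against 3D. The causes of these changes were not tested.

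Centring moved the median difference of all genes to 0.31 against each culture, and the share of called genes that were higher in tissue was 61.6% against 2D and 60.6% against 3D, beside 40.9% and 43.5% as deposited and 52.3% in each with cyclic loess. Replicate numbers were not taken to pair the samples, since the labels name no animals. Same-numbered arrays deviated together more often than others. Of their pairs 7 of 12 had a correlation over 0.1 (-0.067 to 0.407), against 9 of 36 other pairs. Those of 2D with 3D and of 3D with tissue were all positive (0.013 to 0.407), so that a pairing is possible. With the replicate number as a block the counts of neurotrophin genes were 1, 2 and 0, those of pathway genes 22, 29 and 0, and the difference of Ntrk2 probe set 1437560_at from 3D had a limma adjusted p of 0.0516. Dim probe sets limit what can be seen: 9 of 24 averaged under 6.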
